A study of Saccharomyces cerevisiae with 61 samples.

Results

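The regions described here are 1073 narrow binding sites of topoisomerase II (Top2) that coincide with a binding site of topoisomerase I (Top1) in budding yeast cells at 3 h of synchronous meiosis. They were chosen by 2 measured values, as the intervals of the Top2 peak list that are under 1000 bases wide and share at least 1 base with an interval of the Top1 peak list. Chromosomes I, III, VI and XII were left out. The remaining 12 chromosomes held 2370 Top2 peaks, of 2759 in the whole list, and 1924 Top1 peaks, of 2234. Of the 1802 Top2 peaks under 1000 bases on these chromosomes, 1073 shared a base with a Top1 peak (59.5%), against 1564 of the 2370 Top2 peaks of any width (66.0%). Overlap and width chose the regions, so these counts and every value from both lists are a description, with no test.

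The study followed both enzymes, nucleosomes and transcripts in meiotic cells of SK1, a laboratory strain known for its efficient sporulation. Top1 was immunoprecipitated with an anti-Myc antibody from TOP1-13MYC cells (strain H9847), in which Top1 carries a Myc tag. Top2 was immunoprecipitated with an anti-Top2 antibody from wild-type cells (strain H7797) that carry no such tag. Cells of both strains were sampled 3 h after transfer to sporulation medium at 30 °C, and each list combines 2 replicates with their paired inputs (8 of the 61 samples of the series). The lists thus come from different strains and cultures, and neither carries a replicate error. Coordinates refer to the Yue assembly of SK1, and the genes and sequence at these places were not analysed here.

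Top1 relaxes supercoiled DNA by nicking a single strand and letting the helix turn, whereas Top2 cuts both strands of a duplex and passes another duplex through the break. Both remove the supercoils that moving RNA and DNA polymerases create, and only Top2 can untangle intact DNA molecules. In budding yeast both enzymes are known to associate with the open chromatin of gene promoters. Meiotic DNA breaks made by Spo11 also fall mostly in open promoter chromatin.

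The Top1 and Top2 peaks of a pair were centred close to each other. The midpoint of the Top1 peak lay a median of 82 bases from that of the Top2 peak (quartiles 32.5 and 209.5 bases, n = 1073 regions). It lay within 50 bases in 384 regions (35.8%), within 100 bases in 602 (56.1%) and within 200 bases in 794 (74.0%). Offsets above 500 bases occurred in the remaining tail, since 954 regions (88.9%) were within 500 bases, and the largest was 2531 bases. Relative to the width of the Top2 peak, the median offset was 19.4%. Each midpoint lay inside the other enzyme's peak in 758 regions (70.6%).

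Both sides along the chromosome coordinate held nearly equal numbers. The Top1 midpoint was at the higher coordinate in 537 regions and at the lower in 535, with 1 region where both midpoints coincided. The median signed offset, Top1 minus Top2, was 0.50 bases, with quartiles of -79.5 and 83 bases. Between neighbouring regions, the direction was the same in 506 of 1059 pairs (47.8%). The strand of nearby genes was not used, so an offset along the direction of transcription was not examined.

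**Figure D1:**
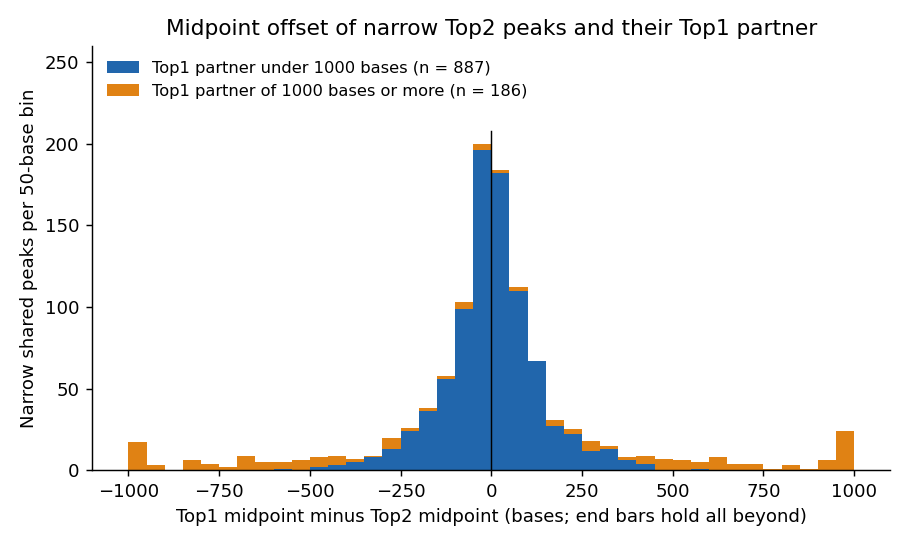
Histogram of the distance from the Top2 midpoint to the Top1 midpoint in bases, in 50-base bins, for 887 regions whose Top1 partner is under 1000 bases wide and 186 whose partner is wider. The blue bars peak at both sides of 0, and the orange bars spread to the end bars, which hold all larger distances.

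The offset went with the width of the Top1 partner more than with that of the Top2 peak. With a Top1 partner under 1000 bases (887 regions, 82.7%), the median absolute offset was 60.5 bases, and with a wider partner (186 regions) it was 623 bases. Over Top1 partners of 200 to 299 bases the median was 44.25 bases, over 400 to 599 bases 82.5 bases, and over 800 to 999 bases 151.5 bases. For Top2 widths, the medians ran from 62.5 bases in peaks of 200 to 299 bases to 138 bases in peaks of 800 to 999 bases. Spearman's rho of the absolute offset was 0.53 with the Top1 width and 0.093 with the Top2 width (n = 1073, a description across regions of the same libraries). With both peaks under 1000 bases, rho was 0.24 with the Top1 width and 0.12 with the Top2 width (n = 887).

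Peaks that overlap can be no farther apart at their midpoints than the mean of their widths, so wide partners allow larger offsets. As a fraction of that largest possible offset, where 0 is concentric and 1 is barely touching, the median was 0.193 (quartiles 0.08 and 0.423). The fraction was 0.159 for partners under 1000 bases and 0.637 for wider ones. Among partners under 1000 bases it stayed between 0.152 and 0.204 in all 5 width bins. Under wide partners, 114 of 186 Top2 peaks (61.3%) crossed an edge of the Top1 peak, and the Top2 midpoint was a median of 225.75 bases from the nearest edge. In 83 of these 186 regions the partner also overlapped another Top2 peak, and peaks that share an interval cannot all be centred in it.

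Pairs with stronger Top1 enrichment were centred slightly more closely where the Top1 partner was under 1000 bases. With the 1073 regions divided into 4 equal classes by Top1 fold enrichment, the median offset there was 76 bases in the lowest class (247 regions) and 57 bases in the highest (205 regions). By 4 classes of Top2 fold enrichment, it was 71 bases in the lowest (221 regions) and 57 bases in the highest (213 regions). Over all partner widths, the medians of the lowest and highest class were 83 and 79.5 bases by Top1 enrichment and 94 and 79.5 bases by Top2 enrichment.

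The next 3 sites illustrate concentric pairs, chosen as the one-to-one pairs with the smallest offset. In 6 pairs the offset was at most 0.5 bases, and ties were taken by higher Top2 fold enrichment. On chromosome XIII, a Top2 peak at 573804 to 574184 and a Top1 peak at 573792 to 574196 had the same midpoint. Its Top2 fold enrichment over input was 1.76 and its Top1 fold enrichment 1.21. On chromosome V, the Top1 peak at 152208 to 152506 sat inside the Top2 peak at 152150 to 152563, with midpoints 0.5 bases apart and fold enrichments of 1.22 for Top1 and 2.09 for Top2. On chromosome XIV, the Top1 peak at 237038 to 237377 sat inside the Top2 peak at 236976 to 237440, again 0.5 bases apart, with fold enrichments of 1.24 for Top1 and 1.85 for Top2. All 3 Top1 peaks were weak calls. Their −log10 q-values were 1.48, 2.14 and 2.59, below the lower quartile of all Top1 partners (2.65).

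The most displaced one-to-one pairs all had a Top1 interval several times wider than the Top2 peak. The largest offset, 1506.5 bases, was on chromosome XV, where a Top2 peak at 961045 to 961747 touched the end of a Top1 interval of 3378 bases at 958201 to 961578. The next was on chromosome IV, with the Top2 peak at 342541 to 343073 at the start of a Top1 interval at 342565 to 345383 (offset 1167 bases). On chromosome IX, the Top2 peak at 210890 to 211367 lay inside a Top1 interval at 210742 to 213363, with an offset of 924 bases. In all 3 the Top2 peak lay at an end of the Top1 interval, and none was centred in it.

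Widths matched on the whole but only loosely pair by pair. The Top2 peaks had a median width of 399 bases (quartiles 301 and 586 bases) and their Top1 partners one of 411 bases (quartiles 283 and 745 bases). The whole lists on the 12 chromosomes also had similar median widths, 446.5 bases for Top2 and 458 bases for Top1. The match is thus not particular to these pairs. The median log2 ratio of Top1 to Top2 width was 0.00, with quartiles of -0.44 and 0.68. The Top1 peak was wider in 535 regions, narrower in 536 and equal in 2. Widths agreed within 1.5-fold in 572 regions (53.3%) and within 2-fold in 785 (73.2%). Larger differences were lopsided, and a limit on width applied to Top2 but not to Top1. The Top1 peak was more than 4-fold wider in 104 regions, and the Top2 peak more than 4-fold wider in 2.

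In the 887 pairs in which both peaks were under 1000 bases, the same limit applied to both enzymes. The names of both lists carry differing marks that no source used here explains, so the calling settings may differ between the enzymes. Their part in the widths was not tested. There the median log2 width ratio was -0.15, so the Top1 peak was typically the narrower. Spearman's rho between both widths was 0.36 in these pairs and 0.28 over all 1073.

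**Figure D2:**
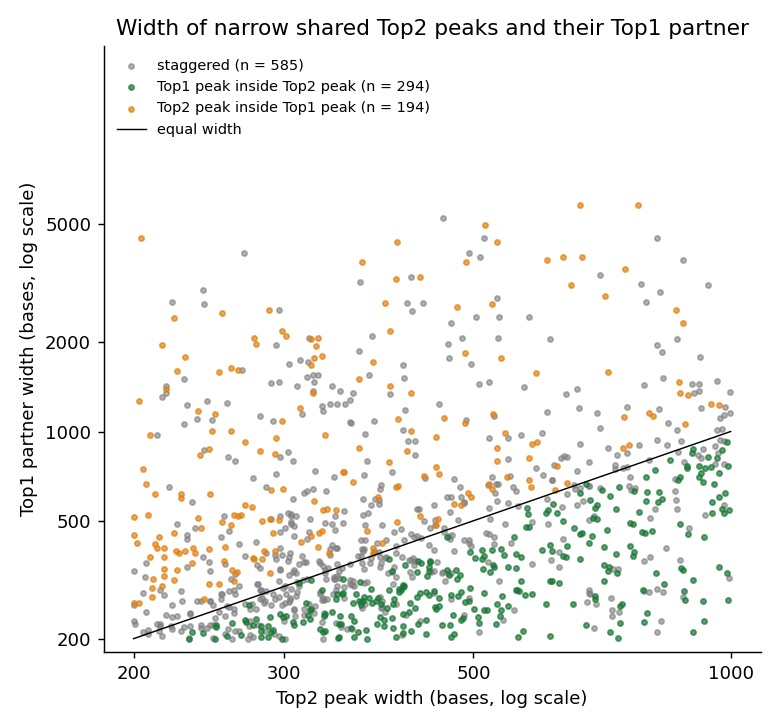
Width of each Top2 peak (horizontal, bases, log scale) against that of its Top1 partner (vertical, bases, log scale), 1 point per region, coloured by how the peaks lie. Points scatter on both sides of the line of equal width, and the regions above 1000 bases on the vertical axis are those with a wide Top1 partner.

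Most pairs overlapped deeply. The shared stretch was a median of 284 bases (quartiles 223 and 406), and only 6 regions shared under 50 bases. It covered a median of 79.0% of the Top2 peak and 79.1% of the Top1 peak. A reciprocal overlap of at least 50% held for 694 regions (64.7%), and one of at least 80% for 210 (19.6%). The starts of both peaks were a median of 90 bases apart and the ends 87 bases.

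The pairs divided into 3 arrangements. In 294 regions (27.4%) the Top1 peak lay within the Top2 peak. These had the smallest offsets, a median of 29.75 bases, with median widths of 291 bases for Top1 and 512 bases for Top2. In 194 regions (18.1%) the Top2 peak lay within the Top1 peak, with a median offset of 80.75 bases. The other 585 were staggered, 300 with Top1 toward lower and 285 toward higher coordinates, with median offsets of 120 and 138 bases. Where a peak lies within the other, the difference in width limits the offset, and staggered pairs lie beyond that limit. The order of these offsets thus follows in part from the definitions. The median Top2 fold enrichment was 1.73 where Top1 lay within Top2 and 1.48 where Top2 lay within Top1. The median Top1 enrichment had the other order, 1.30 and 1.36. Enrichment and width went together in both lists, with a Spearman's rho of 0.32 for Top2 and 0.29 for Top1 (n = 1073).

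At the weakest contact, a Top2 peak on chromosome VII at 641228 to 641440 shared 2 bases with a Top1 peak at 641439 to 642411. Just outside the rule, a Top2 peak on chromosome XVI at 774764 to 775097 missed its nearest Top1 peak by 95 bases. Of the 729 narrow Top2 peaks without Top1, 17 had a Top1 peak closer than 500 bases and 75 (10.3%) one closer than 1000 bases, and the median gap was 2134 bases.

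The share that touched Top1 rose with the width of the Top2 peak and then levelled off. It was 267 of 546 peaks of 200 to 299 bases (48.9%) and 270 of 493 peaks of 300 to 399 bases (54.8%). It reached 65.9% at 400 to 599 bases and 75.4% at 600 to 799 bases. In the widest bin it was nearly the same, 117 of 155 peaks of 800 to 999 bases (75.5%). A longer interval has more room to share a base with a Top1 peak, wherever it lies. How much of the rise comes from width alone was not tested.

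Pairing was nearly exclusive. Each of the 1073 regions overlapped exactly 1 Top1 peak. In 990 of them (92.3%) that Top1 peak in turn overlapped no other Top2 peak, so the pair was one-to-one. The regions had 1042 different Top1 partners, 54.2% of the 1924 Top1 peaks on these chromosomes. All 887 pairs with a Top1 peak under 1000 bases were one-to-one, against 103 of the 186 with a wider partner (55.4%).

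The way the lists were built bears on these counts. Neighbouring peaks were never closer than 802 bases in the Top1 list and 804 bases in the Top2 list, and no peak was narrower than 200 bases. Only 114 of the 1073 Top2 peaks were wide enough to reach from one Top1 peak to the next across the smallest gap. For the other regions, a second Top1 partner was impossible. Likewise, 56 of the 887 Top1 partners under 1000 bases (6.31%) were wide enough to reach across the smallest Top2 gap. For the rest, a second Top2 peak on the same partner was impossible. Where neither peak of a pair was wide enough, a one-to-one pair followed from the lists' spacing.

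The 83 regions that shared their partner lay on 52 Top1 intervals of 1350 to 5793 bases (median 2564.5). On 26 of these, 2 narrow Top2 peaks lay under the same Top1 interval, and on 2 there were 3. On 23, a narrow Top2 peak lay beside a wide one, and on 1 there were 2 narrow peaks and a wide one. The 83 regions had a median offset of 929 bases, against 72.75 bases in the one-to-one pairs. This difference follows in part from the definition, since peaks that share an interval cannot all be centred in it. All of the 83 regions also had a wide Top1 partner, against 10.4% of the one-to-one pairs. The offsets were not compared at equal partner width, so the part of sharing itself was not tested. The median Top2 fold enrichment of the 83 regions was 1.61 against 1.57, and that of their partners 1.40 against 1.32.

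Enrichment over input was modest for both enzymes and lower for Top1. These fold enrichments and q-values are the authors', given per peak. The Top2 fold enrichment of the regions ran from 1.11 to 3.30 with a median of 1.58, and 173 regions (16.1%) reached 2. That of their Top1 partners ran from 1.13 to 2.42 with a median of 1.32, and 3 reached 2. These medians were close to those of the whole lists on the 12 chromosomes, 1.57 for Top2 and 1.32 for Top1. Top2 had the higher value in 904 regions (84.2%) and Top1 in 169. The experiments used different antibodies, so the values do not rank the occupancy of the enzymes. The median −log10 q-value was 14.5 for Top2 and 4.30 for Top1. ChIP of untagged cells with the Myc antibody was not analysed here, and its part in the Top1 peaks was not tested.

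Spearman's rho between both fold enrichments was 0.17 and Pearson's r 0.20 over the 1073 regions, which share 2 pooled experiments. In the one-to-one pairs rho was 0.17 and r 0.21. From the lowest to the highest of 4 equal classes of Top2 enrichment, the median Top2 value went from 1.32 to 2.09, and the median Top1 value from 1.31 to 1.36. The 107 regions with the highest Top2 enrichment and the 107 with the highest Top1 enrichment had 26 in common (24.3% of each), where each set was 9.97% of all regions.

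**Figure D3:**
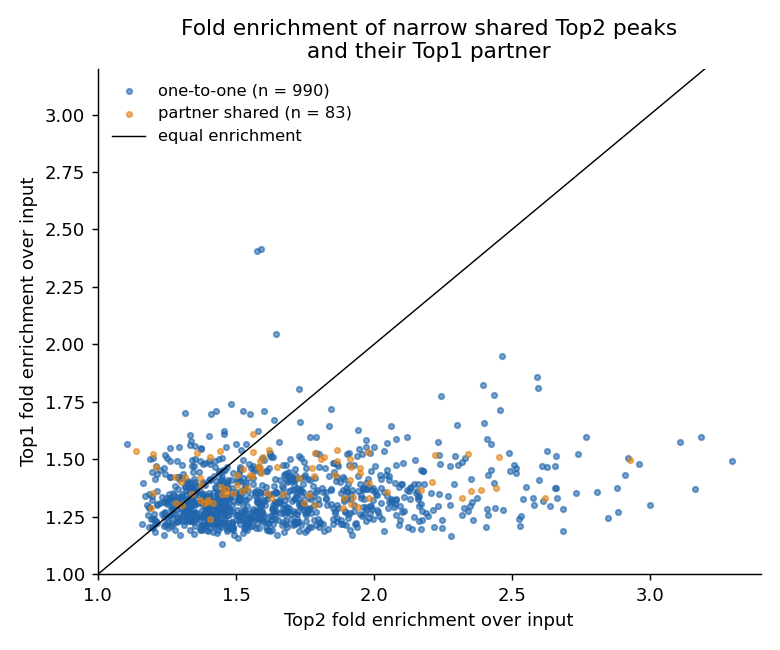
Fold enrichment over input of the Top2 peak (horizontal) and of its Top1 partner (vertical), 1 point per region, with one-to-one pairs in blue. Most points lie below the line of equal enrichment, and 3 Top1 partners stand above a fold enrichment of 2.

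The strongest Top2 peaks had partners above the median Top1 fold enrichment of 1.32. On chromosome X at 365735 to 366482, the Top2 fold enrichment was 3.30 and that of the Top1 peak at 365640 to 366391 was 1.49. On chromosome XIV at 276936 to 277684, the Top2 value was 3.18, and the Top1 value at 276863 to 277744 was 1.60. On chromosome IV at 432840 to 433340, the Top2 value was 3.16, and the Top1 value at 432889 to 433139 was 1.37. The first pair was nearly equal in width (748 bases for Top2, 752 for Top1) with an offset of 93 bases, and the second was offset by 6.5 bases.

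The strongest Top1 partners, named after their values were seen, had Top2 peaks near the Top2 median of 1.58. The Top1 peak on chromosome V at 572670 to 573016 had a fold enrichment of 2.42, and its Top2 peak at 572588 to 572938 one of 1.59. On chromosome XV, the Top1 peak at 147384 to 148730 had a value of 2.41, and the Top2 peak at 148137 to 149042 one of 1.58. On chromosome V, the Top1 peak at 244916 to 245489 had a value of 2.05, and the Top2 peak at 245051 to 245538 one of 1.64. The next in order was high in both lists. On chromosome XVI, the Top1 peak at 641130 to 641932 reached 1.95 and the Top2 peak at 641119 to 641920 reached 2.47, with widths of 803 and 802 bases and midpoints 11.5 bases apart.

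The other narrow peaks and the wide shared peaks give the scale, with no test, since width and overlap set them apart. The 729 narrow peaks without Top1 had a median width of 333 bases and a median fold enrichment of 1.45, and 43 of them (5.90%) reached 2. The 491 wide peaks shared with Top1 had a median width of 1553 bases and a median fold enrichment of 1.81, and 146 (29.7%) reached 2. The narrow shared peaks, at 1.58, fell between them. Wide shared peaks lay farther from their partner in bases, with a median of 232.5, but not in the fraction of the largest possible offset (0.156 against 0.193). Of the wide shared peaks, 418 (85.1%) were one-to-one, and 1 peak could overlap up to 3 Top1 peaks.

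Values on both sides of the width limit overlapped. Just inside it were Top2 peaks of 998 bases on chromosome XI at 140148 to 141145, of 997 bases on chromosome XI at 396598 to 397594, and of 996 bases on chromosome IV at 1052401 to 1053396. Their Top2 fold enrichments were 1.35, 1.96 and 2.30, and their offsets 195, 228 and 116 bases. Just outside were shared Top2 peaks of 1002 bases on chromosome IV at 1408350 to 1409351, of 1003 bases on chromosome VII at 1037514 to 1038516, and of 1003 bases on chromosome XIII at 893051 to 894053. Their fold enrichments were 1.37, 1.73 and 1.86, and their offsets 93, 112.5 and 39 bases. The 59 regions of 900 to 999 bases had a median offset of 116 bases and 96.6% one-to-one pairs. The 53 shared peaks of 1000 to 1099 bases had 143.5 bases and 96.2%. The median Top2 fold enrichment was 1.70 in the narrower band and 1.56 in the wider. This order was opposite to that of all narrow shared (1.58) and all wide shared peaks (1.81).

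Along the chromosomes, neighbouring narrow shared peaks were a median of 6197.5 bases apart, midpoint to midpoint (quartiles 3097 and 12050.5, n = 1061 distances). Distances under 2 kb made up 10.6%, those under 5 kb 41.0% and those under 20 kb 89.7%. All Top2 peaks together had a median distance of 3406.75 bases (n = 2358), and all Top1 peaks one of 3835.75 bases (n = 1912). The narrow shared peaks are only a part of the Top2 list (45.3%), so a longer distance between them follows from their smaller number. The closest other Top2 peak of any kind, on either side, was a median of 2362 bases away from a narrow shared peak. Taking the nearer side can only shorten a distance, so this value is not comparable with the medians above. Measured between the Top1 partners instead, the distance between neighbouring narrow shared peaks differed by a median of 173.5 bases.

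**Figure D4:**
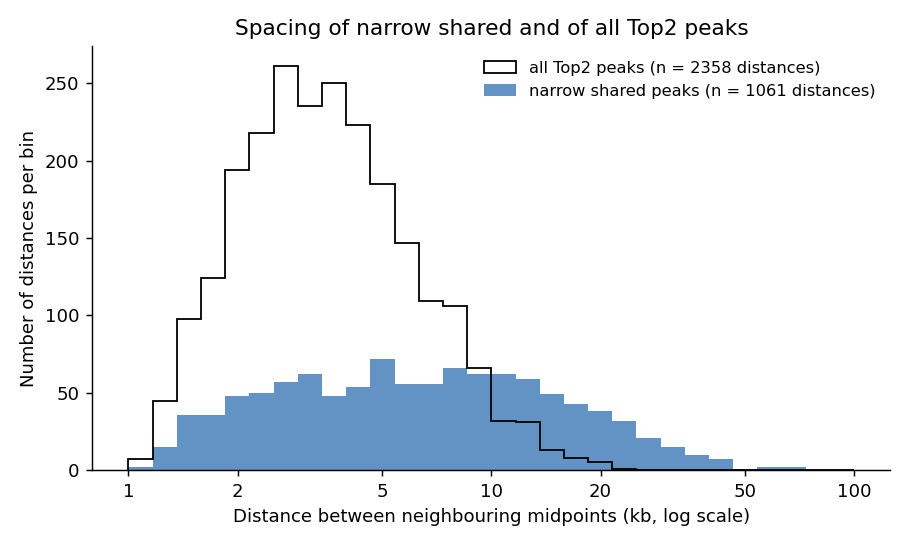
Distances between neighbouring midpoints (kb, log scale) of narrow shared peaks (blue, 1061 distances) and of all Top2 peaks on the 12 chromosomes (line, 2358 distances), as counts per bin. The distances of narrow shared peaks form a broad, flat distribution, and those of all Top2 peaks a narrower one around 3 kb. Narrow shared peaks are a part of the Top2 list, so their neighbours lie farther apart by selection.

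Narrow shared peaks were interleaved with the other kinds. The next Top2 peak after a narrow shared peak was another of the same kind in 474 of 1069 cases (44.3%), a narrow peak without Top1 in 328 (30.7%), a wide shared peak in 236 (22.1%) and a wide peak without Top1 in 31 (2.90%). Narrow shared peaks made up 45.3% of the 2370 Top2 peaks, so the first of these shares lay close to their share of the list. Where 2 followed each other directly, their median distance was 2854.5 bases. They fell into 599 runs unbroken by another kind of Top2 peak, of which 343 held a single region and the longest held 12.

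The closest neighbours were on chromosome XIV, 1106.5 bases apart, with Top2 peaks at 452710 to 453017 and 453848 to 454092. Each had its own Top1 peak, at 452618 to 452866 and 453721 to 454084, and both Top1 midpoints were at the lower coordinate, by 121.5 and 67.5 bases. The farthest neighbours were on chromosome XIII, 69380 bases apart, between the Top2 peaks at 640150 to 640589 and 709604 to 709895. That stretch was not free of the enzymes. It held 7 Top2 peaks of other kinds, 2 of them wide and shared with Top1, and 8 further Top1 peaks.

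The longest stretch in which one-to-one pairs followed each other with no other peak of either list in between held 11 pairs on chromosome X. It began with the Top2 peak at 110814 to 111740 and ended with that at 140600 to 140799, a span of 29.99 kb. Steps within it ran from 1462 to 5978 bases. Signed offsets ran from -266.5 to 315.5 bases, with a median absolute offset of 102 bases, so both directions occurred side by side. The Top2 fold enrichment ranged from 1.19 (at 139077 to 139398) to 2.91 (at 129291 to 130182). The Top1 values stayed between 1.19 and 1.43, and the highest belonged to the same pair as the highest Top2 value, with a Top1 peak at 129008 to 130338.

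Every one of the 12 chromosomes carried narrow shared peaks, from 49 on chromosome IX to 171 on chromosome IV. Density up to the last peak end ranged from 8.76 per 100 kb on chromosome XIV to 13.0 on chromosome XVI, with a median of 10.5. They made up 35.9% of the Top2 peaks on chromosome XIV and 52.1% on chromosome XVI, with a median of 45.6%. The same chromosomes were thus lowest and highest by both measures. The median spacing was shortest on chromosome XVI, at 5025.5 bases, and longest on chromosome XI, at 8344.5 bases. Chromosome XIV, the lowest in density, had a median spacing of 5282.75 bases, below the median of the chromosomes (6058.88 bases).

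The geometry of the pairs was alike in kind on each chromosome. The median absolute offset lay between 50 bases on chromosome V and 118 bases on chromosome IX, and the median signed offset between -10 and 10.25 bases. The median log2 width ratio ranged from -0.15 on chromosome XV to 0.20 on chromosome VIII. One-to-one pairs made up between 86.0% on chromosome VII and 98.3% on chromosome V. The median fold enrichment ranged from 1.47 to 1.65 for Top2 and from 1.30 to 1.36 for Top1. With no replicate lists, no spread is known against which these differences between chromosomes could be set.

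**Figure D5:**
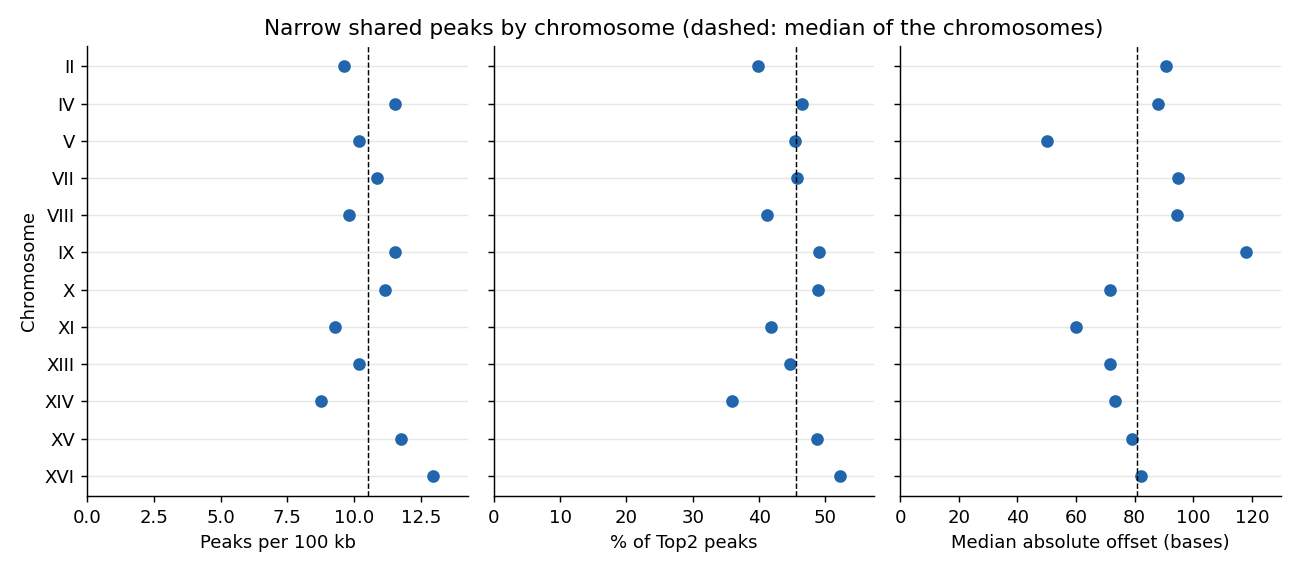
Density per 100 kb, percentage of the chromosome's Top2 peaks, and median absolute midpoint offset in bases of narrow shared peaks, 1 point per chromosome, with the median of the 12 chromosomes as a dashed line. Chromosome XIV is lowest and chromosome XVI highest in density and percentage, and the offset ranges from 50 bases on V to 118 bases on IX.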

How the data were processed

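Both ChIP-seq peak lists were deposited by the authors as MACS2 broad peaks. Per the submitters' processing notes, Bowtie and MACS2 2.1.1 were used. Settings are not given in the sources used here. Per the series design text, signal was combined over 2 replicates and their inputs. The deposited lists give start, end, a fold ratio over input, −log10 p-values and q-values, and a score that equals 10 times the −log10 q-value, cut to a whole number. They hold no summits, so midpoints of intervals were compared. Read depth is unknown, and the precision of a peak edge is not given.

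Overlaps, offsets (Top1 minus Top2) and distances were computed with Python 3.11.15, numpy 2.4.6 and pandas 2.3.3, with scipy 1.17.1 and matplotlib 3.10.9, and checked on simulated peaks. Starts count from 1. Where a peak could have several partners, the largest overlap was taken. Sites named are the extremes of enrichment, offset, width limit and spacing. The regions and measures were chosen with earlier results of these data known. The deposited spike-in read counts and transcript levels were not used here.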

Additional observations from a re-analysis of the deposited data

How the results depend on the processing

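No paired analysis was possible because each list pools its replicates, and for the same reason no replicate could be left out. A planned limit of a −log10 q-value of at least 5 in both lists left 403 regions, with a median offset of 86 bases, a median log2 width ratio of 0.18, 85.1% one-to-one pairs and a median spacing of 15483 bases. A reciprocal overlap of at least 50% left 694 regions, with 48.5 bases, -0.12, 100% and 9720 bases. Separate peaks cannot each cover at least 50% of the same partner, so the 100% was fixed by that rule. The rule also limits the offset and the width ratio. Counting only Top1 partners under 1000 bases left the 887 regions described above, with 60.5 bases, -0.15, 100% and 7690.5 bases. A Top2 width under 750 bases left 924 regions, with 76.75 bases, 0.050, 92.3% and 6788.5 bases. All 16 chromosomes gave 1230 regions, with 86 bases, 0.022, 91.9% and 6389.5 bases. Choosing the partner by nearest midpoint changed no value, as each region had 1 partner. The sign of the median width ratio therefore depends on these choices. The limit on Top1 width removed only pairs with the wider Top1 peak, so it could only lower that median. For the other choices, the cause was not tested. Of the 5 measures, the number of regions and their spacing moved most with the q-value limit, which keeps fewer peaks. Offsets and width ratios depend on where the authors' caller ended each peak.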
